A study of Mus musculus with 4 samples.

Results

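The genes described here encode scaffold proteins of the postsynaptic density, the protein sheet beneath the membrane of excitatory synapses. They were chosen by name, as 9 of 21938 protein-coding genes of the mouse annotation: 4 Dlg genes (Dlg1, Dlg2, Dlg3 and Dlg4), 3 Shank genes (Shank1, Shank2 and Shank3) and 2 Dlgap genes (Dlgap1 and Dlgap3). The assay was ChIP-seq, the sequencing of DNA pulled down with an antibody, here one against H3K4me3 (histone H3 trimethylated at lysine 4), a mark of active and poised promoters, in left cerebral cortex. The tissue came from adult female B6CASTF1/J mice, a cross of C57BL/6J with CAST/EiJ, aged 2 months and with no treatment named, and both groups share this genotype, sex, age and tissue. The peak lists do not separate the parental alleles. The groups are pool J and pool I, each made of 4 biosamples and sequenced as 2 technical replicates, with 1 peak list per pool and 1 replicated list called over both.

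The 3 families form a chain in the spine head. Dlg proteins are membrane-associated guanylate kinase homologues (MAGUKs) whose PDZ domains hold glutamate receptors and channels by their tails. Dlgap proteins, also called SAPAP or GKAP, bind the guanylate kinase-like domain of the Dlg proteins on one side and the PDZ domain of Shank proteins on the other, and Shank proteins multimerise and bind Homer and actin regulators. Several of these genes are known to use internal promoters that give shorter proteins with other amino-terminal ends, so which of their annotated starts carried the mark is a question these lists can address.

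With 1 list per pool there is no test between pools, and the values below are a description. Both pools carry the same donor record, so the spread between them may be technical in part, and the read numbers behind the lists are unknown. Cortex is a mixture of cells, and a mark in fewer cells of a type cannot be told apart from less of the mark per cell. Marker genes of the tissue were checked in the same way: 5 of 5 excitatory neuron markers, 3 of 3 of inhibitory neurons, 3 of 3 of astrocytes, 3 of 3 of endothelium, 2 of 3 of oligodendrocytes and 2 of 3 of microglia were marked in the replicated list, against 0 of 4 genes of liver, heart, epidermis and gut. The microglial markers were marked in 0 of 3 cases in pool J and 2 of 3 in pool I, and those of oligodendrocytes in 2 and 3 of 3. The 2 microglial markers of pool I were not the same 2 as in the replicated list. A microglial marker with a domain of 211 bases in the replicated list was marked in neither pool. The lists held 21573 peaks (pool J), 24508 (pool I) and 25446 (replicated).

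A start counted as marked when a peak lay within 1000 bases of it, and peaks with gaps of at most 1000 bases between them were joined as a domain. Each of the 9 scaffold genes had a marked start in the replicated list, in which 65.2% of all protein-coding genes had one. The same 9 genes were marked in pool J, where the share of all genes was 63.9%, and in pool I, where it was 64.8%.

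The promoters that show this best are printed here, since they range from a CpG island to stretches with hardly a CpG, under peaks or without one. The sequences are those of RefSeq on GRCm38.p6, from 250 bases before a start to 50 bases from it, on the plus strand, on which all 9 genes lie. The promoter table held 16 promoters of 7 of the 9 genes, and none for Shank1 and Shank2. Capitals mark CpG dinucleotides, of which the Shank3 promoter has 40 and the Dlg2 promoter near 92062394 has 1.
Shank3, chr15:89499358-89499657: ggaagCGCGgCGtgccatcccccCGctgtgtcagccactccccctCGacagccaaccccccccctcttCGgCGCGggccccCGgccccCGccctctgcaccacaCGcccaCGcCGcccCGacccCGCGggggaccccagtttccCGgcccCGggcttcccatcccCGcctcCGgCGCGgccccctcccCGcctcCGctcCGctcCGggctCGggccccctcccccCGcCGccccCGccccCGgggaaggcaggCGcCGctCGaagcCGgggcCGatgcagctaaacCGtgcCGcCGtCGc
Dlg1 first start, chr16:31663193-31663492: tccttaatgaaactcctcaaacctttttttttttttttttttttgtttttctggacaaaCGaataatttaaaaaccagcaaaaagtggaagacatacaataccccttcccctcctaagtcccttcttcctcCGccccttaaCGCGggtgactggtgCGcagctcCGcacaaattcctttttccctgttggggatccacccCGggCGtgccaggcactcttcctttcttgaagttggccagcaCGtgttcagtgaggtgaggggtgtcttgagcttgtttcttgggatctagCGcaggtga
Dlg1 start known to RefSeq alone, chr16:31695298-31695597: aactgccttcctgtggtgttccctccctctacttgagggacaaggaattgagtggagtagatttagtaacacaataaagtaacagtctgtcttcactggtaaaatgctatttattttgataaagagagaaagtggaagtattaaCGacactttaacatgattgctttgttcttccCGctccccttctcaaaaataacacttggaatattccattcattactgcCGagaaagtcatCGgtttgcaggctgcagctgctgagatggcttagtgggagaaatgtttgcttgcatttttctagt
Dlg1 internal start, chr16:31754100-31754399: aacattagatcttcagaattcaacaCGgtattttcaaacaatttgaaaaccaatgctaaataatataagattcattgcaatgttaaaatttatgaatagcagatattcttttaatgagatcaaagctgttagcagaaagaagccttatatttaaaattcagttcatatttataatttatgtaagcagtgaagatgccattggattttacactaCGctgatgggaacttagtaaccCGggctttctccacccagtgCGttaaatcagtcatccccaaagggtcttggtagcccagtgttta
Dlg2 second start group, chr7:91090536-91090835: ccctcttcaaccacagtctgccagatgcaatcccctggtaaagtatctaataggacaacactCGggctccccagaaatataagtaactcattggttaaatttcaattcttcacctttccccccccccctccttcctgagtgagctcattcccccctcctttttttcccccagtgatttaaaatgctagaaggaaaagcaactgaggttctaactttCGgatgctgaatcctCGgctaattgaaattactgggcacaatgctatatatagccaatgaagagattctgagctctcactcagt
Dlg2 unmarked start, chr7:92062144-92062443: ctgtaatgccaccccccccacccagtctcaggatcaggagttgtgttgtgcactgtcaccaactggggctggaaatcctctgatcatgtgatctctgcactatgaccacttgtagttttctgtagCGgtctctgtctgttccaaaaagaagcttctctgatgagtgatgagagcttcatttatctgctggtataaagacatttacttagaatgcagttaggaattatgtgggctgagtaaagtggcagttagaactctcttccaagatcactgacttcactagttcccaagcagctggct
Dlg2 last marked start group, chr7:92234720-92235019: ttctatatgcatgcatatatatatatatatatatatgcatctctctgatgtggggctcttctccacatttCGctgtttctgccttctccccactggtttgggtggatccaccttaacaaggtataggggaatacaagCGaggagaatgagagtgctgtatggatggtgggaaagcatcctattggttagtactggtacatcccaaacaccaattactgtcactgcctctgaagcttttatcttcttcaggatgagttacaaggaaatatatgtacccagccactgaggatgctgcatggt

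Of the 16 RefSeq promoters, 15 lay at a marked start, and the unmarked one was that of Dlg2 at 92062394. Of all 32851 promoters listed, 48.7% lay at a marked start, and of the 20150 whose gene symbol is that of a GENCODE protein-coding gene 65.2%. The Shank3 promoter lay under a peak of 23.0-fold enrichment, and the Dlg1 first promoter, with 10 CpGs, under one of 29.9-fold. Another Dlg1 promoter under that same peak, at chr16:31663685-31663984 and not printed, has 27 CpGs. Enrichment is the authors' fold value of a peak and the highest over a domain is given. The remaining printed promoters were poor in CpG: 4 CpGs in each of the 2 Dlg1 promoters further downstream (enrichment 11.3 and 10.8), and 3 and 2 CpGs in the marked Dlg2 promoters (19.6 and 13.9). The marked member promoters had a median of 9 CpGs.

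With peaks up to 1000 bases apart joined, Dlgap3 had the widest domain of the 9 genes. Its protein is abundant at corticostriatal synapses, and mice without it groom compulsively. The domain was 7917 bases wide in pool J, 8126 in pool I and 8058 in the replicated list (8021.5 ± 147.8, SD, n = 2 pools), at chr4:127167719-127175776. Both pools lay above every other scaffold gene, and the domain stood at percentile 99.2 of the widths of all marked genes. It began 1485 bases before the first annotated start and ran 6572 bases past it, over the start 3676 bases downstream as well. This rank depended on the joining of peaks: with only overlapping or touching peaks merged the Dlgap3 domain was 4197 bases, below Shank2 (5433), Dlg4 (4600) and Dlg1 (4500), and with peaks up to 3000 bases apart merged Dlg4 spanned 15381 bases and Dlgap3 8058.

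Dlgap1, the gene of GKAP itself, came next with 5999 bases in pool J, 6598 in pool I and 6256 in the replicated list (6298.5 ± 423.6, n = 2). This domain, at chr17:70521098-70527353, was not at the 5′ end of the gene but 552604 bases into it, at a group of 6 starts, 4 of them with a protein-coding transcript. The domain at the 5′ end spanned 3062 bases in pool J, 3615 in pool I and 3558 in the replicated list. Enrichment at the 5′ end was 21.7 (pool J) and 19.8 (pool I), and at the internal starts 15.7 and 19.2, so the order of the 2 sites by width was the reverse of their order by enrichment in both pools. With only overlapping or touching peaks merged Dlgap1 had 3514 bases, and with a −log10 q of at least 10 it had 5196, both below Shank2.

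Dlg4, the main MAGUK of mature excitatory synapses, showed the greatest difference in width between pools of the 9 genes. Its widest domain was 4523 bases in pool J, 6936 in pool I and 4600 in the replicated list (5729.5 ± 1706, n = 2). The difference came from the merging rule. The gap to the next peak was 1030 bases in pool J, 897 in pool I and 1006 in the replicated list, on either side of the 1000 bases allowed, and the span of both peaks together was 6915 bases (pool J) and 6936 (pool I). Measured as a span the pools thus differed by little.

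Shank2 had 5354 bases in pool J, 5460 in pool I and 5433 in the replicated list (5407.0 ± 74.95, n = 2), at chr7:144283452-144288884. This domain too was internal, 282511 bases past the first annotated start, at 2 starts with protein-coding transcripts. Both pools placed it among the widest 5% of domains. Shank2 binds through its PDZ domain to the Dlgap proteins, and a shorter form of it is known from an internal start.

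The other 5 genes had domains between 2934 and 4500 bases in the replicated list. Dlg1, the most widely expressed of the Dlg genes, had 4583 bases (pool J) and 4244 (pool I). Dlg2 had 3720 and 3819, Dlg3, an X-linked gene associated with intellectual disability, 3167 and 3893, and Shank3, the gene of the family lost in Phelan-McDermid syndrome, 3186 and 3192, against 3566 in the replicated list. The Dlg2 values belong to different sites, its second start group in pool J and its first in pool I. Its first group had 3540 bases (pool J) and 3819 (pool I), and its second 3720 and 3685. Shank1 was last, with 3120 and 2936. Ordered by the mean of the pools, the ranges of Dlgap1 and Dlg4, Dlg4 and Shank2, Dlg2 and Dlg3, and Dlg3 and Shank3 overlapped, so these neighbours cannot be ranked. The ranges of Dlgap3 and Dlgap1, Shank2 and Dlg1, Dlg1 and Dlg2, and Shank3 and Shank1 were apart, though over 2 pools.

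Across the 9 genes the median width was 4500 bases (4523 in pool J, 4244 in pool I), and over all 14293 marked genes it was 2124. All 9 were above that median and 8 of 9 above the third quartile of 2966 bases, Shank1 being the exception. Domains wider than 5166.40 bases were called broad, which 5.0% of the marked genes had. Of the scaffold genes 3 were broad in the replicated list and in pool J (Shank2, Dlgap1 and Dlgap3), and 4 in pool I, where the merging of its peaks added Dlg4. The scaffold genes reached further downstream of the 5′-most start inside the widest domain (median 3957 bases) than upstream of it (847). All marked genes with a start inside their widest domain had medians of 1367 and 615, and reached further downstream in 85.2% of cases, the scaffold genes in 8 of 9. Shank3 was the exception, with 1987 bases upstream and 1578 downstream.

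Enrichment told the scaffold genes apart less than width. Their median highest enrichment was 21.1, from 17.2 to 29.9, and over all marked genes it was 20.8. Dlg1 was highest, at 29.1 (pool J) and 29.3 (pool I), above the range of every other member. Shank3 followed with 21.7 and 24.1, Dlgap3 with 22.7 and 20.8, Dlg2 with 23.3 and 20.2, Shank2 with 19.2 and 23.6, Shank1 with 20.6 and 22.0, Dlgap1 with 21.7 and 19.8, and Dlg4 with 20.2 and 19.3. Each of these 7 genes overlapped with its neighbour in the order, while Dlg4 lay below Shank3, Dlgap3 and Shank1 in both pools. The Dlg2 values are those of its first start group in pool J and its second in pool I. Dlg3, at 15.3 (pool J) and 18.6 (pool I), lay below the range of Dlg4.

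**Figure D1:**
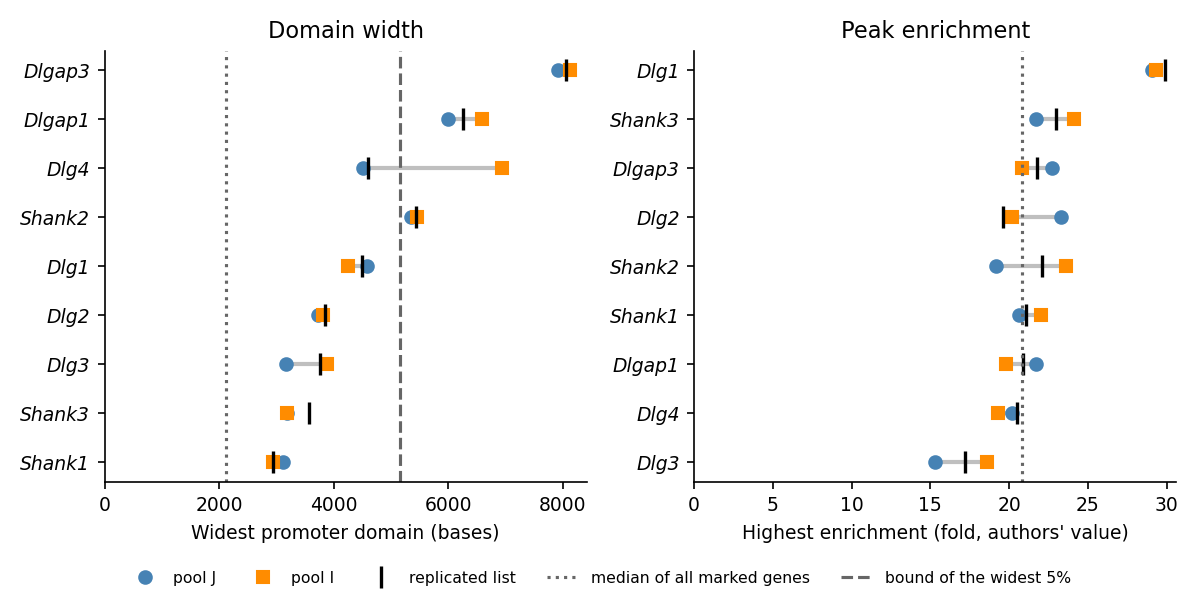
Widest promoter domain in bases (left) and highest enrichment in fold (right) of each scaffold gene in pool J (circles), pool I (squares) and the replicated list (vertical ticks), ordered by the mean of the pools, with grey bars joining the pools, a dotted line at the median of all marked genes (2124 bases and 20.8-fold) and a dashed line at the bound of the widest 5% (5166.40 bases). All 9 genes lie right of the dotted line for width, and they lie on both sides of it for enrichment. The dotted and dashed lines are those of the replicated list.

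The pools differed in the same direction for most genes. Domains were wider in pool I than in pool J for 7 of the 9 genes, with a median ratio of 1.03, and Dlg1 (ratio 0.926) and Shank1 (0.941) were wider in pool J. Among the 13961 protein-coding genes marked in both pools 76.6% were wider in pool I, with a median ratio of 1.07. The direction was the same for the scaffold genes and for the lists as a whole.

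More than 1 separate domain at their own starts was found in all 9 scaffold genes, in the replicated list and in each pool. Among all marked genes 9.45% had 2 or more. The count of scaffold genes was 8 with a −log10 q of at least 10 and 8 with peaks up to 3000 bases apart merged. It was also 8 when a start had to lie inside a peak. With starts of protein-coding transcripts only it was 7, against 6.83% of all marked genes. The scaffold genes have many annotated starts, from 4 to 10 start groups each when starts up to 1000 bases apart are joined. Among the 3193 marked genes with as many groups, 22.9% had 2 or more domains and 5.45% had 3 or more, the latter being 1.46% over all marked genes. Of the scaffold genes 5 had 3 or more: Dlg2 with 6, and Dlg3, Dlg4, Shank3 and Dlgap1 with 3 each. In all, 26 domains lay at their starts.

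Of the 100 annotated starts of the scaffold genes 76 were marked, and of the 93513 starts of all protein-coding genes 55.3%. Among starts that begin a protein-coding transcript 50 of 58 were marked (all genes 61.6%), and among the others 26 of 42 (all genes 46.4%). Of the marked starts 65 lay inside a peak and 11 beside one. By groups, 31 of 54 were marked (57.4%; all genes 36.3%). The 5′-most group was marked in 8 of 9 genes (all genes 61.7%), and the groups further downstream in 23 of 45 cases, or 51.1%. Over all genes the latter share was 15.3%, and the shares over all genes include genes with no marked start. Among the 25 other postsynaptic density genes described below, 67.9% of starts and 46.2% of groups were marked. The share was 92.0% for their 5′-most groups and 31.6% for those further downstream. Some groups share a domain, so they are not independent.

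**Figure D2:**
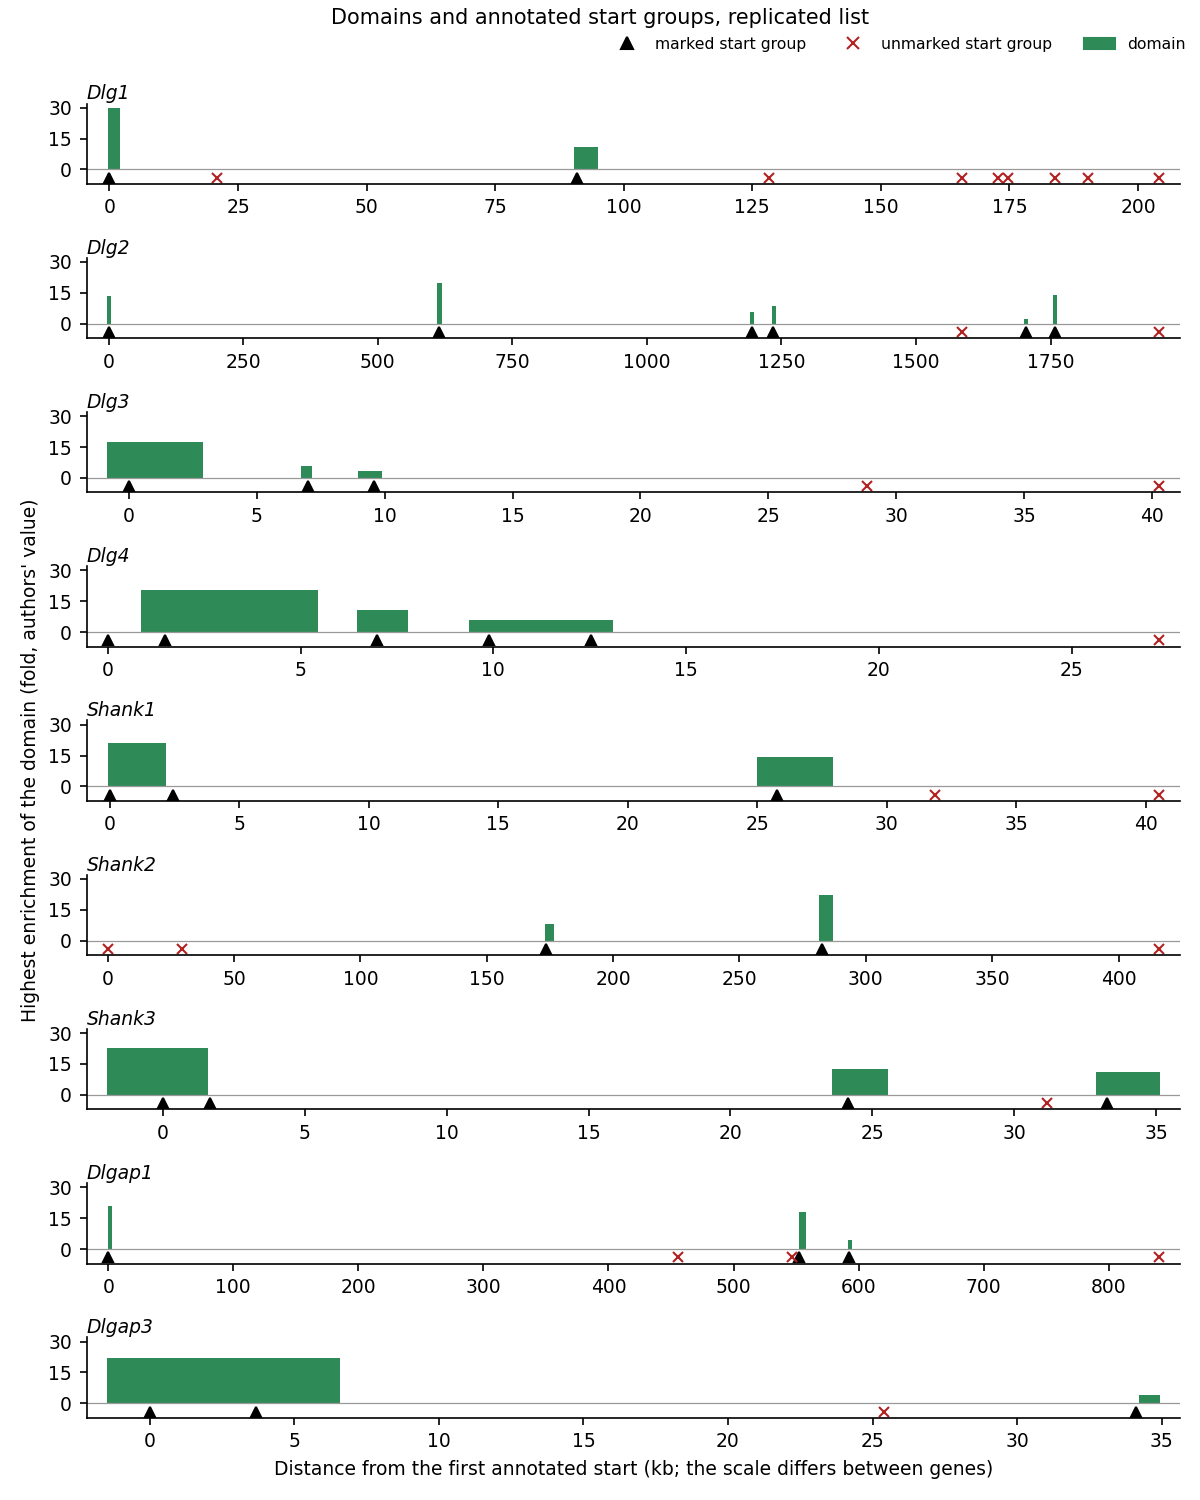
Start groups and domains of the 9 scaffold genes in the replicated list, by distance from the first annotated start in kb on a scale of its own for each gene, with the height of each bar giving the highest enrichment of the domain in fold, triangles marked start groups and crosses unmarked ones. Each gene has at least 2 domains, and the first start group of Shank2 is the 5′-most one left unmarked.

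Among the MAGUK genes, Dlg2 was spread over the most domains. Its start groups lie over 1950997 bases, the longest reach among the 9 genes, and its alternative first exons give proteins with and without an amino-terminal L27 domain or a palmitoylation site. Its first start group had a peak of 23.3-fold enrichment in pool J, 12.6 in pool I and 13.5 in the replicated list, over 3540, 3819 and 3848 bases. This domain, chr7:90475053-90478900, also covers starts of Tmem126b, a gene of mitochondrial complex I assembly on the opposite strand, at 90475995 and 90476001, and the mark of the 2 genes cannot be told apart there. The second group, 614034 bases downstream, had 17.9-fold in pool J, 20.2 in pool I and 19.6 in the replicated list, over 3759 bases. The order of these 2 sites by enrichment differed between the pools.

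Further into Dlg2 the domains at 1195820 and 1234748 bases from the first start were weaker. The first had 5.17-fold (pool J) and 6.40 (pool I), and the second, at a protein-coding start, 7.22 and 9.50. A domain at 1704012 bases had 3.50-fold (pool J) and 3.0 (pool I), the weakest of the 26 in the replicated list at 2.26-fold over 497 bases. The last, at 1758251 bases, stood out from these with 13.0-fold in pool J and 12.8 in pool I over 2464 bases in the replicated list, though the 3 starts of its group begin transcripts annotated as processed, with no open reading frame. RefSeq has a curated start in this group. The coding start at 92062394 was unmarked in every list, with the nearest replicated peak 118087 bases away.

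Dlg1 had 2 domains. The first spanned 2120 bases in pool J, 2656 in pool I and 2315 in the replicated list, with the highest enrichment of all the scaffold domains, 29.9. The second lay 90907 bases downstream at a single protein-coding start and was wider and weaker, at 4583 bases and 8.51-fold in pool J, 4244 bases and 11.4-fold in pool I. The other 8 of the 10 start groups of Dlg1 were unmarked, and 1 of these 8 begins a protein-coding transcript. A further domain of 4015 bases lay at chr16:31695083-31699097, 31640 bases past the first start, with 10.5-fold (pool J) and 13.1 (pool I). No GENCODE start of Dlg1 lies there, but 3 RefSeq starts do.

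Dlg3 had its main domain at the 5′ end, with 15.3-fold enrichment (pool J) and 18.6 (pool I). Downstream followed 2 small ones, 422 bases wide with 5.99-fold at 7019 bases and 954 bases wide with 3.38-fold at 9563 bases, both present in each pool. The 2 last start groups of Dlg3 were unmarked. In Dlg4 the starts were packed within 27255 bases and 19 of 20 were marked. The first of them, at 70016942, lay outside the peak, which began 857 bases downstream, and the second group at 1499 bases lay inside it. The next domain, at 6978 bases, had 9.28-fold in pool J and 10.7 in the replicated list, and the third, over start groups at 9882 and 12545 bases, 6.60-fold (pool J) and 6.65 (pool I).

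Among the Shank genes, enrichment at the 5′ end was 20.6 (pool J) and 22.0 (pool I) for Shank1, and 21.7 and 24.1 for Shank3. Shank1 had a second domain of 3120 bases (pool J) and 2936 (pool I), 25763 bases downstream at a start of a noncoding transcript, with 14.0-fold and 13.5-fold. This was the widest domain of the gene, since that at its 5′ end spanned 2211 bases (pool J) and 2277 (pool I). Another, of 394 bases and 3.09-fold, was called in pool J near the start at 44350762 and was absent from the lists of pool I and the replicated peaks.

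Shank2 was the one scaffold gene with no mark at its 5′-most GENCODE start, 144001928, or at the next, 144031264. Both begin protein-coding transcripts, and the nearest replicated peak to the first was 22550 bases away. That peak belongs to a domain of 1452 bases with 5.48-fold enrichment, at which RefSeq has predicted Shank2 starts from 23041 to 23851 bases upstream of the first GENCODE start. The 5′-most RefSeq starts of Shank3 (89493013) and Shank1 (44308916), both predicted, were unmarked. They lie 6610 and 1337 bases from the nearest GENCODE start of their gene. The first marked GENCODE group of Shank2, at 173601 bases, had 11.7-fold in pool J and 8.75 in pool I over 3898 and 3830 bases. The second, at 282511 bases, had 19.2-fold and 23.6-fold, higher than the first in both pools.

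Shank3, known for isoforms from several internal promoters, had 3 domains. After the 5′ domain came 1 at 24138 bases, with 11.8-fold (pool J) and 13.5 (pool I), and 1 at 33267 bases, with 11.6-fold and 11.9-fold. The internal domains differed little from each other in either pool and were below the 5′ domain in both. The domain chr15:89523200-89525182 also covers the start of the long noncoding RNA gene Gm15609 on the minus strand, so its mark cannot be given to Shank3 alone. The start at 89530796 was unmarked, with a peak 1715 bases away.

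In the Dlgap genes the third domain of Dlgap1, at 592479 bases, was weak, with 5.98-fold (pool J) and 5.33 (pool I). The coding start groups of Dlgap1 at 70424794 and from 70516022 to 70516648 were unmarked, the latter group with a peak 4450 bases from its nearer start. Dlgap3 had a second domain 34102 bases downstream at a noncoding start, 349 bases wide (pool J) and 1436 (pool I), with 3.71-fold and 3.99-fold. Its coding start at 127194613 was unmarked.

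Over the 26 domains, the 8 at a 5′-most group had enrichments from 13.5 to 29.9, with a median of 21.0, and the 18 others from 2.26 to 22.1, with a median of 9.57. Their widths ranged from 2245 to 8058 bases (median 3664.50) and from 422 to 6256 bases (median 2114.00). The highest enrichment of a gene was at its 5′-most group in 7 of 9 genes in the replicated list, the exceptions being Dlg2 and Shank2. The widest domain was elsewhere in 4 genes, Dlg1, Shank1, Shank2 and Dlgap1. Dlg4 was counted at its 5′-most group through a peak that began 524 bases past the last start of that group. These comparisons of 5′-most and other sites were not made over all protein-coding genes. Whether they are particular to the scaffold genes is not known. Of the 31 start groups marked in both pools, 19 had the higher enrichment in pool I and 24 the wider domain there.

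**Figure D3:**
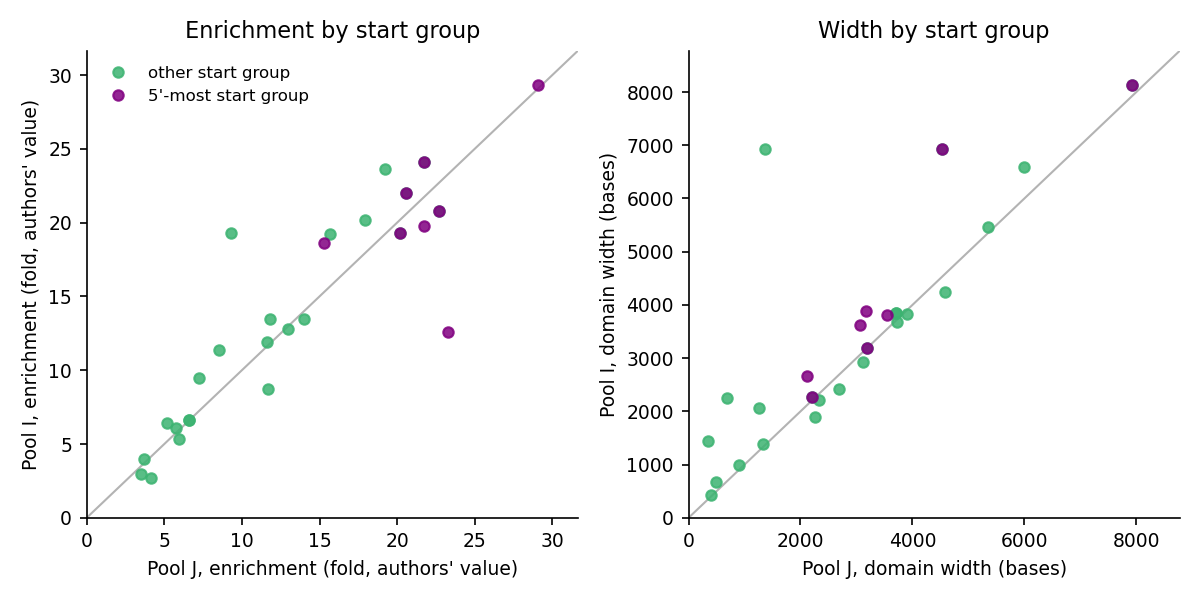
Enrichment in fold (left) and domain width in bases (right) of each of the 31 start groups marked in both pools, pool J on the horizontal and pool I on the vertical axis, purple for the 5′-most group of a gene and green for the others, with a grey line of equal values. The first group of Dlg2 lies furthest below the line for enrichment (23.3 in pool J, 12.6 in pool I), and the third group of Dlg4, whose peaks were merged in pool I, furthest above it (9.28 and 19.3). For width the first 3 Dlg4 groups lie furthest above the line in bases, and the third group of Dlg2 (690 and 2259) and the fourth of Dlgap3 (349 and 1436) lie above it too.

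The sequence around the starts was compared as a property that the choice of genes did not use. CpG content was taken as the observed over the expected number of CpGs in 1000 bases around each start group. The marked groups of the scaffold genes had a median of 0.405 (n = 31, from 0.103 to 0.904) and the unmarked ones 0.282 (n = 23, from 0.111 to 0.543). Over all protein-coding genes the medians were 0.688 for marked and 0.214 for unmarked groups. The median of the marked scaffold groups lay below that of marked groups at large and nearer to that of their own unmarked groups. The marked sets differ in make-up: 23 of the 31 scaffold groups lay downstream of the 5′-most one, against 4092 of 17626 over all genes. The comparison was not made for 5′-most and other groups apart.

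Split at a ratio of 0.4, the groups under it were marked in 15 of 33 cases for the scaffold genes, or 45.5%, and in 9.72% over all genes. Groups at or above it were marked in 16 of 21 cases, or 76.2%, and in 85.9% over all genes. The shares over all genes include genes with no marked start, and 5′-most and other groups were not split. CpG-rich 5′ ends were found in Dlg1 (0.836), Shank3 (0.884), Dlgap1 (0.890) and Dlgap3 (0.790), and an internal CpG-rich group in Shank3 (0.904, at 24138 bases) and in Shank1 (0.732, at 25763 bases). The wide internal domain of Dlgap1 lay at a group of 0.376, that of Dlg1 at 0.448 and that of Shank2 at 0.450. Groups that share a domain with a CpG-rich neighbour are part of these counts, such as the second groups of Shank3 (0.150) and Dlgap3 (0.130).

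**Figure D4:**
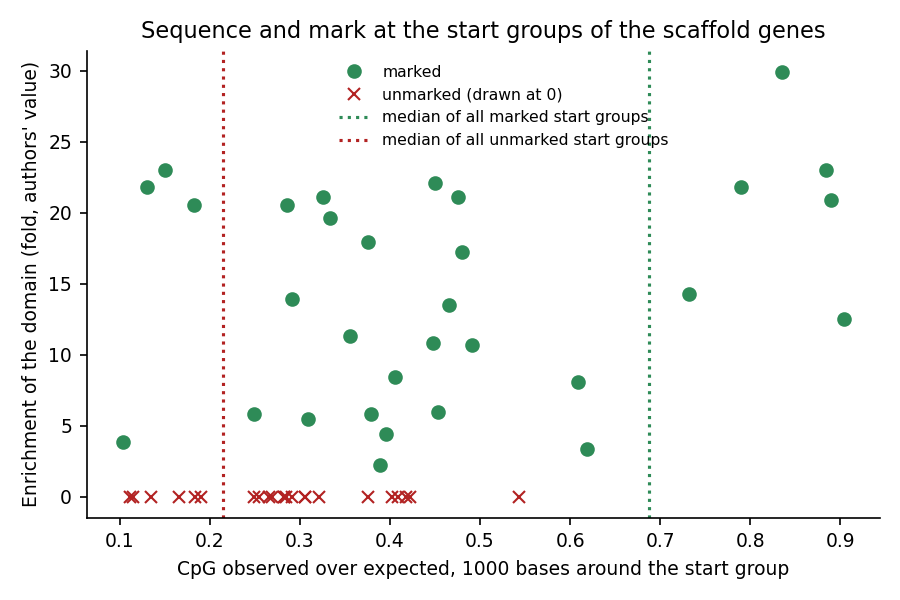
Enrichment of the domain in fold against the CpG observed-over-expected ratio of the 54 start groups of the scaffold genes, green circles for marked groups and red crosses for unmarked ones at 0, with dotted lines at the medians of all marked (0.688) and all unmarked groups (0.214) of protein-coding genes. Marked groups are found on the whole range of the ratio, and the 6 groups above 0.7 are all marked.

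The 16 RefSeq promoters were searched on both strands for 5 short motifs. The GC box GGGCGG was found in 5 of 16, and in 35.7% of all 32851 promoters of the table. The E-box CACGTG was found in 3 (7.15% of all) and TATAAA in 2 (13.6% of all), 1 of them the unmarked Dlg2 promoter at 92062394 and the other the internal Dlg1 promoter at 31754350, both printed above. The CRE TGACGTCA (1.79% of all) and the NRF1 core GCATGCGC (2.71% of all) were found in 0 of 16.

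Genes of the same compartment gave a measure of how far these patterns were shared. Of 25 other postsynaptic density genes all 25 were marked in each list, 7 were broad, and 11 had 2 or more domains (44.0%), their width having a median of 3828 bases and their highest enrichment one of 23.2. The widest were Camk2a, the kinase subunit abundant in the density, with 12141 bases, Baiap2, which couples Shank to actin, with 11276, and Homer1, the Shank partner, with 10439. The narrowest were Homer3 with 1472 bases, Pick1 with 1524 and Begain with 1803. Each scaffold gene was wider than these 3 and narrower than the 3 widest, and both sets had been picked by their width.

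Among the genes nearest to Dlgap3 in width and enrichment over the 2 pools, of 13961 genes marked in both, were Nr4a3 and Trim9. Likeness was the Euclidean distance over log2 width and log2 enrichment, each scaled by its SD. Nr4a3, a nuclear receptor gene, had 7279 bases (pool J) and 7752 (pool I) (distance 0.194). Trim9, a ubiquitin ligase gene, had 7581 and 8393 (0.329).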

How the data were processed

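Peaks of H3K4me3 came from 4 libraries of left cerebral cortex, grouped by pool as the labels give it. The authors deposited 1 peak list per pool, 1 on the pooled reads and 1 replicated list, on the mm10 build per the labels. The deposited enrichment is a ratio (fold, taken here as fold over a control because the deposited text files name fold-over-control tracks), the deposited −log10 q is that of the authors' peak calls, and the deposited display score was not used. The sources used here do not name aligner, caller, settings or read numbers, so depth is unknown. All peaks lay within the GRCm38 chromosomes.

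Starts were all transcript starts of the 21938 protein-coding genes of GENCODE M21. The window and the merging gap were 1000 bases, each gene was given the widest of its domains, and the top 5% by width were called broad. Means are given with the SD of the 2 pools, without any p-value. The genes named besides the 9 were those with a start at their domains, the 3 widest and 3 narrowest of 25 other postsynaptic density genes, and the 3 most like Dlgap3, of which 1 is not reported here. The members and lists were chosen with earlier results of these data known. Alternatives changed the window, gap, q filter, list, starts, broad share and start grouping. The scripts (Python 3.11.15, pandas 2.3.3) were tested on simulated data.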

Additional observations from a re-analysis of the deposited data

How the results depend on the processing

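Of 80 recomputed summaries of the 9 scaffold genes, 73 stayed within an SD or within 1.5 times the count reported. The SD was that between pools, except for the width ratio of the pools, where it was that over the 9 genes. Some summaries could not move, such as the number of marked start groups under another merging gap. The median domain width, 4500 bases, was 3848 when only overlapping or touching peaks were merged, 4244 in the list of pool I alone and 3664.5 when only the 5′-most start of each gene was used. With only 5′-most starts, 1 gene (Dlgap3) in place of 3 was among the widest 5% and, by construction, 0 genes had 2 or more domains. With the widest 10% called broad the count was 5. With starts of protein-coding transcripts only, 50 starts were marked, of 58 (61.6% over all genes). The number of broad genes hid a change of names: merging only touching peaks gave Dlg1, Dlg4 and Shank2, and merging up to 3000 bases gave Dlg4 and Dlgap3. Counting a start as marked only when inside a peak, an alternative chosen after seeing the data, gave 65 starts and 27 start groups. Of 98 recomputed widths of single genes 19 moved by more than the SD between pools, and of 98 enrichments 7. No paired analysis was possible because each pool has 1 peak list and no test was made. Unknown depth limits any reading of small peaks and of starts without one.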

Other observations

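Inside the bodies of the 9 genes 19 further domains of the replicated list lay away from every GENCODE start of the gene. Of the 19 domains 11 were in both pool lists. Some in Dlgap1 were in neither, such as that at chr17:70737966-70738318, with 1.87-fold enrichment and a −log10 q of 0.230. Among the 19, 2 were at a GENCODE start of another gene (Gm45159 and Gm45161 in Dlg2, 5031415H12Rik in Dlgap1). Another 4, at no GENCODE start, were at a RefSeq start of the gene itself. The 4 were the Dlg1 domain already described, 2 in Shank2, at chr7:144132470-144134011 (8.46-fold in pool J, 9.50 in pool I) and chr7:144238348-144241372 (7.42 and 6.88), and 1 in Dlgap3 of 715 bases, found in pool I and not in pool J. The remaining 13 lay at no start in either annotation, and 6 of them were in both pool lists.

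The strongest of these 6 was in an intron of Dlg2, at chr7:91261807-91264707, 2901 bases wide with 16.3-fold (pool J) and 18.2-fold (pool I) enrichment. It was stronger than 5 of the 6 domains at annotated Dlg2 starts in the replicated list (17.2-fold), and a predicted RefSeq start lies 2465 bases before it. Another Dlg2 intron had 11.8-fold and 11.2-fold at chr7:91542474-91543813, with a predicted RefSeq start 3849 bases before it. The 3′ ends of 2 genes carried the mark too. In Shank1 a domain of 1745 bases, at chr7:44359442-44361186, had its summit in an untranslated region and 10.9-fold in pool J and 13.0 in pool I. In Dlgap3 one of 1017 bases, at chr4:127235845-127236861, had 10.5-fold and 10.3-fold. Its summit was in an untranslated region too, and the domain also overlapped coding sequence. Around both summits the CpG ratio was above the median of the marked scaffold starts, 0.659 in Shank1 and 0.775 in Dlgap3. The genes and domains of this section were named after their values were seen, and whether transcripts begin there was not analysed here.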
